A study of Mus musculus with 90 samples.

Results

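The 10 genes described here encode enzymes of glycolysis and of the step between pyruvate and lactate: Hk1, Pfkl, Pfkm, Pfkp, Aldoa, Pgk1, Eno2, Pkm, Ldha and Ldhb. They were taken by name from a table of 19962 mouse genes, in which each has 1 row, and all 10 were present. Glycolysis splits glucose into pyruvate with a small yield of ATP, and lactate dehydrogenase interconverts pyruvate and lactate. Several steps are run by enzymes that come in isoforms from separate genes, and brain cell types are known to differ in the isoforms they use: Eno2 is the neuronal enolase, Aldoc is the aldolase of astrocytes, and lactate dehydrogenase tetramers rich in the A subunit are commonly associated with lactate production and those rich in the B subunit with lactate use. A row counts probes for the whole gene, so that splice forms such as the M1 and M2 forms of pyruvate kinase were not separated.

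The values come from spatial profiling of brain sections with the GeoMx platform and its mouse whole transcriptome probes, in which RNA probes are released and counted from chosen areas of interest (AOIs). A total of 90 AOIs from 10 mice were used: 6 mice from a chronic social stress paradigm (CSS) and 4 controls. AOIs lay in fields CA1 and CA3 of the hippocampus, motor cortex (MC), somatosensory cortex (SS) and choroid plexus (CP), and each was labelled high (46 AOIs) or low (44 AOIs) for p16, the cell cycle inhibitor encoded by Cdkn2a that is used as a marker of senescent cells. All mice were profiled in fixed, paraffin-embedded sections of 5 µm; strain, age, sex and the way the p16 label was assigned are not stated in the labels used here. There were 52 AOIs of CSS mice and 38 of control mice, and each mouse gave at most 1 AOI per subregion and p16 label; 90 of 100 possible combinations were present. A signal is the probe count scaled by the authors so that every AOI has the same median gene, at 22.1, and the recovered total count per AOI ranged from 184469 to 2098984. AOIs of 1 mouse were averaged before any test, so that the mouse is the replicate.

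AOIs of CP, CA1 and CA3 carried the markers of their labels. No marker list used here separates MC from SS, so those labels were not checked. The summed signal of 8 choroid plexus epithelium markers was 56478 to 114285 in CP AOIs and at most 750 in AOIs of any other subregion. The summed signal of 7 general neuron markers was 110 to 190 in CP and 1528 to 12315 elsewhere. CA1 markers summed to 877 to 2041 in CA1 and at most 253 in CA3, and CA3 markers to 360 to 929 in CA3 and at most 125 in CA1. Control mouse 1175 stood apart: it held the lowest signal of all mice in 42 of the 50 combinations of a member and a subregion. Control mouse 1151 held the highest in 30 of 50. The median gene stood 1.32 times over the negative probe in the median AOI of mouse 1175, the lowest of 10 mice, and 1.75 times in that of mouse 1151, the highest. The part of this background in the signals of these mice was not tested. The Cdkn2a probe did not separate the p16 labels in hippocampus and cortex, with a log2 difference of -0.04 (SE 0.11, adjusted p = 0.92 by limma) and a higher signal in the high AOIs of 5 of 10 mice. Its signal had a median of 23.1, close to the median gene, and lay above the negative probe in 86 of 90 AOIs; in a probe this near background, the missing difference says little about the label.

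Every member was measured well above background. All 10 exceeded the negative probe in 90 of 90 AOIs, and their mean signals lay between percentile 94.7 (Pfkp) and percentile 99.95 (Aldoa) of all genes. The lowest margin over the negative probe in any AOI was 2.90-fold, for Ldha. Of the partner isoforms used below, Aldoc and Eno1 were above the negative probe in 90 AOIs, but Hk2, the inducible hexokinase, in only 40 AOIs, so that a ratio to Hk2 is a ratio to a gene near background.

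Promoter sequences are shown for the lactate dehydrogenase pair and, of the other members, for the one with the largest fall (Eno2) and the one with the largest rise (Pgk1) in choroid plexus. Ldha lies on the plus strand of chr7:46842274-46855627, Ldhb on the minus strand of chr6:142490249-142507957, Eno2 on the minus strand of chr6:124760053-124769673 and Pgk1 on the plus strand of chrX:106187100-106203699 (GRCm38.p6, RefSeq). The sequences are the 250 bases before the first start that the RefSeq promoter table used here lists for each gene; for Ldha that start lies 3530 bases inside the gene's span, so its window is not the one before the gene's first base. They run 5′ to 3′ on the gene's strand, with capitals at ACGTG and GCGTG on either strand, the core letters bound by HIF-type and E-box factors.
Ldha (chr7:46845554-46845803): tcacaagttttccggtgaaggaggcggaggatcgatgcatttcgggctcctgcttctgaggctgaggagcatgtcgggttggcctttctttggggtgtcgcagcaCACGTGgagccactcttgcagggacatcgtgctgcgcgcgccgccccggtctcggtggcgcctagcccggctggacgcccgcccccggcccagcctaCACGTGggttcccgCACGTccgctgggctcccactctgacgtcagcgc
Ldhb (chr6:142507958-142508207): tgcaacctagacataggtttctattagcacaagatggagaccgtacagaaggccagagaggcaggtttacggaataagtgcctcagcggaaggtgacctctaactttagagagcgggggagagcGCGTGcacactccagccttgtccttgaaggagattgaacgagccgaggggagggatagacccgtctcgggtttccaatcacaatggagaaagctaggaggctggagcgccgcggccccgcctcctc
Eno2 (chr6:124769674-124769923): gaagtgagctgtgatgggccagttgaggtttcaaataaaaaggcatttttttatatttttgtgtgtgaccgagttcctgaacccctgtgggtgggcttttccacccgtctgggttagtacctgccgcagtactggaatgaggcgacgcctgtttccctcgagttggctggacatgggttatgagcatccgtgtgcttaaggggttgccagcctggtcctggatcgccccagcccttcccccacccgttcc
Pgk1 (chrX:106186850-106187099): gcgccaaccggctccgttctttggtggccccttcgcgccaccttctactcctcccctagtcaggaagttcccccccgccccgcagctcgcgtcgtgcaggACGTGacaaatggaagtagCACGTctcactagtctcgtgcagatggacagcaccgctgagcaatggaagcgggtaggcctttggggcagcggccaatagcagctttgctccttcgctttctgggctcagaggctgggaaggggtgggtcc
The Ldha window held ACGTG 5 times, counting both strands of its 2 copies of the palindrome CACGTG, and the Pgk1 window held it 2 times. ACGTG stood in 3 of the 10 members' windows (Pfkm, Pgk1 and Ldha) and in 16.5% of 27025 windows of the same length. GCGTG stood in 3 members' windows (Pfkl, Pfkp and Ldhb) and in 28.3% of all windows. The Eno2 window held neither. A match of letters is a description and not a binding site. The other members lie, in the same build, at chr10:62268855-62379920 (Hk1), chr10:77986947-78009807 (Pfkl), chr15:98092589-98132447 (Pfkm), chr13:6579874-6649060 (Pfkp), chr7:126795234-126800994 (Aldoa) and chr9:59656576-59679372 (Pkm).

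The plot of signals by mouse shows how the members' levels were ordered over the 5 subregions.

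**Figure D1:**
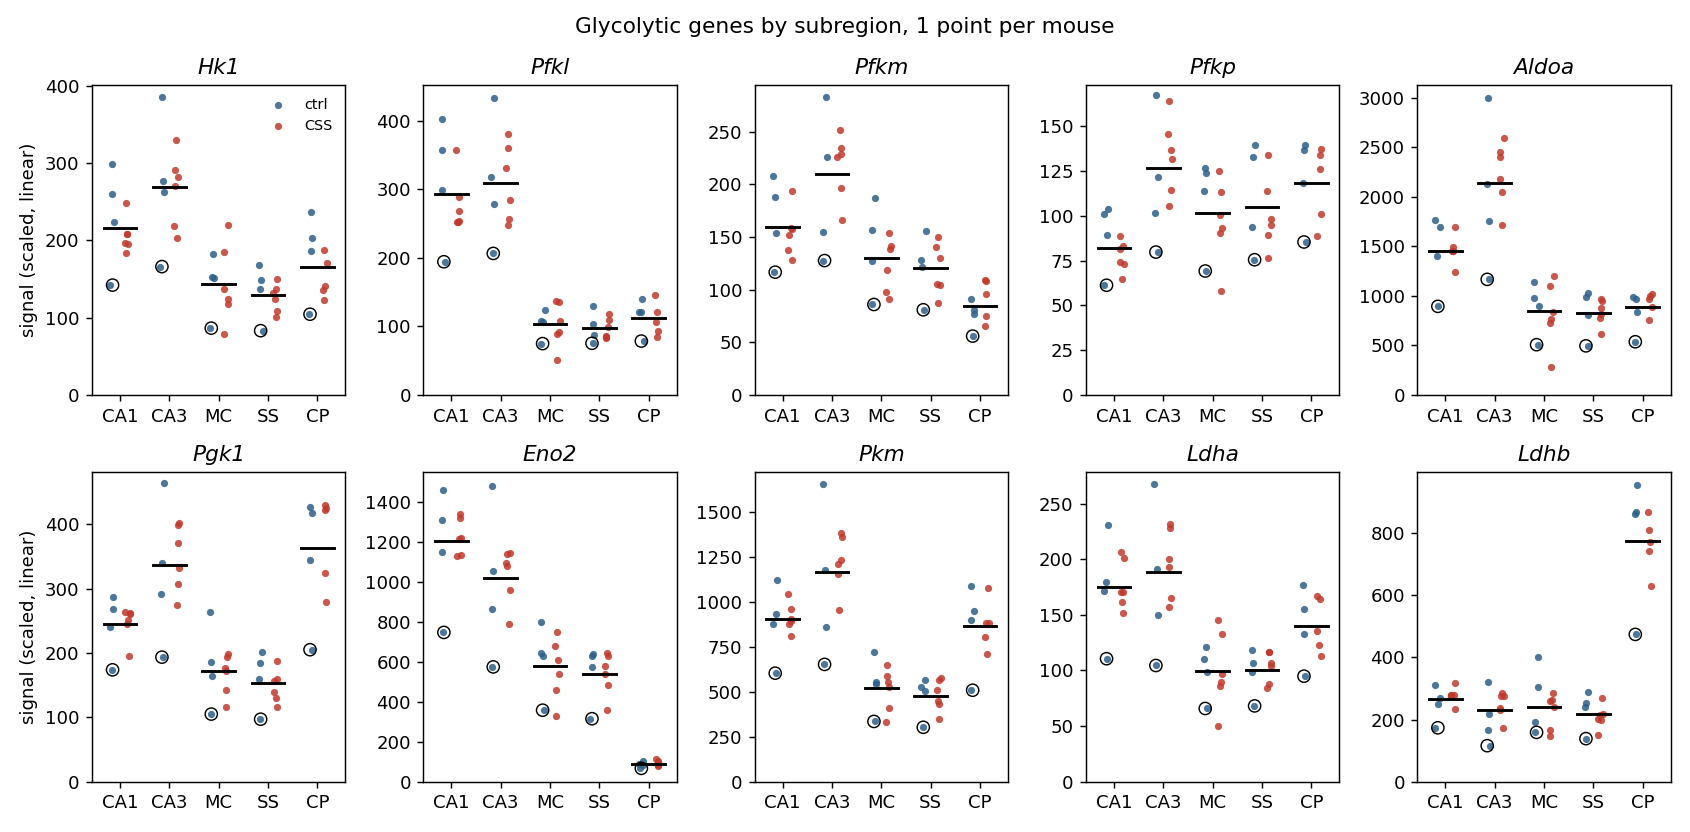
Signal of each gene (linear scale, scaled by the authors to a common median gene) in each subregion, 1 point per mouse as the mean of its AOIs, in blue for control and red for CSS mice; bars are means over mice and open circles mark control mouse 1175. Ldhb stands at 474 to 956 in CP and at most 401 elsewhere, Eno2 at 66.6 to 111 in CP and at least 315 elsewhere, and CSS and control points overlap in every panel.

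Choroid plexus differed from the mean of the 4 other subregions in most members, in opposite directions for different enzymes. Ldhb, the B subunit of lactate dehydrogenase, was 3.27-fold higher in CP, while Eno2 was 8.58-fold lower. Pgk1, the first ATP-yielding enzyme of the pathway, and Pkm, which makes pyruvate, were higher, and Aldoa, Pfkl and Pfkm were lower. In all, 8 of the 10 members passed an adjusted p of 0.05 (limma, within mice, Benjamini-Hochberg over all genes), 4 higher and 4 lower. Of all genes, 40.2% passed in the same comparison, 20.6% higher and 19.6% lower, and 30.2% moved in 1 direction in each of the 9 mice. Of the 1997 genes with the highest mean signal 88.2% passed, so that the count of members called was close to that of other high-signal genes.

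The Ldhb signal in CP was 956, 867, 474 and 861 in control mice 1151, 1168, 1175 and 1182, and 631, 742, 868, 772 and 811 in CSS mice 1152, 1157, 1162, 1163 and 1170. Even the lowest of these, in mouse 1175, was above every value of the other subregions, which ranged from 116 to 401. The mean was 776 ± 146 (SD, n = 9) in CP and 242 over the other subregions of the same mice, a log2 difference of 1.71 (95% interval 1.61 to 1.81, adjusted p = 2.81e-16 by limma), higher in 9 of 9 mice. Ldha, the A subunit, was not called: it was 140 ± 27.3 in CP, between its hippocampal and cortical levels, with a log2 difference of 0.05 (interval -0.08 to 0.19, adjusted p = 0.574 by limma).

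Eno2 in CP was 90.5 ± 14.6 (n = 9), with a lowest mouse of 66.6 and a highest of 111, against 837 over the other subregions. The log2 difference was -3.10 (interval -3.25 to -2.95, adjusted p = 1.56e-17 by limma), lower in 9 of 9 mice. The 7 general neuron markers were also called lower in CP, 7 of 7, with a median log2 difference of -4.46, and their part in the Eno2 difference was not tested. In tissue areas of this kind, fewer cells of a type and less RNA per cell cannot be told apart. Eno1, the widely expressed enolase, was higher in CP (1036 against 709, log2 difference 0.62, adjusted p = 4.99e-10).

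Of the other members, Pgk1 was 364 ± 81.1 in CP against 227 (log2 difference 0.74, interval 0.62 to 0.87) and Pkm 867 ± 180 against 771 (0.27, interval 0.18 to 0.36), both higher in 9 of 9 mice. Pgk1 in CP exceeded its CA3 level in 7 of 9 mice. Pkm in CP lay below its CA3 level and near its CA1 level, with CA1 higher in 5 of 9 mice. The Pkm difference was not called after quantile normalization (0.05, adjusted p = 0.336). Aldoa fell by 0.46 on the log2 scale (886 ± 156 against 1328), lower in 9 of 9 mice. Its CP level lay below its CA1 level in 9 of 9 mice. Against MC (843) and SS (833) the CP mean was no lower, with CP above MC in 5 of 9 mice.

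The 3 phosphofructokinases, which catalyse the committed step, diverged. Pfkm, the muscle-type subunit, was 84.3 ± 18.2 in CP against 156 (log2 difference -0.85, interval -0.99 to -0.70), and Pfkl, the liver-type subunit, 113 ± 23.5 against 201 (-0.63, interval -0.74 to -0.52), each lower in 9 of 9 mice. Pfkp, the platelet-type subunit, was 119 ± 21.5 against 105 (0.20, interval 0.04 to 0.36, adjusted p = 0.0406), higher in 7 of 9 mice. That call was lost without mouse 1157, 1162, 1163, 1168 or 1175, where adjusted p lay between 0.0697 and 0.118. Pfkp in CP lay near its CA3 level (127), with CA3 higher in 4 of 9 mice. Pfkl in CP lay below its CA1 level in 9 of 9 mice. Against its MC (103) and SS (97.7) levels Pfkl was no lower, with CP above MC in 5 of 9 mice. Hk1, which phosphorylates glucose, did not pass (log2 difference -0.15, interval -0.28 to -0.02, adjusted p = 0.0654). Without the mouse as a block, 5 members were called.

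**Figure D2:**
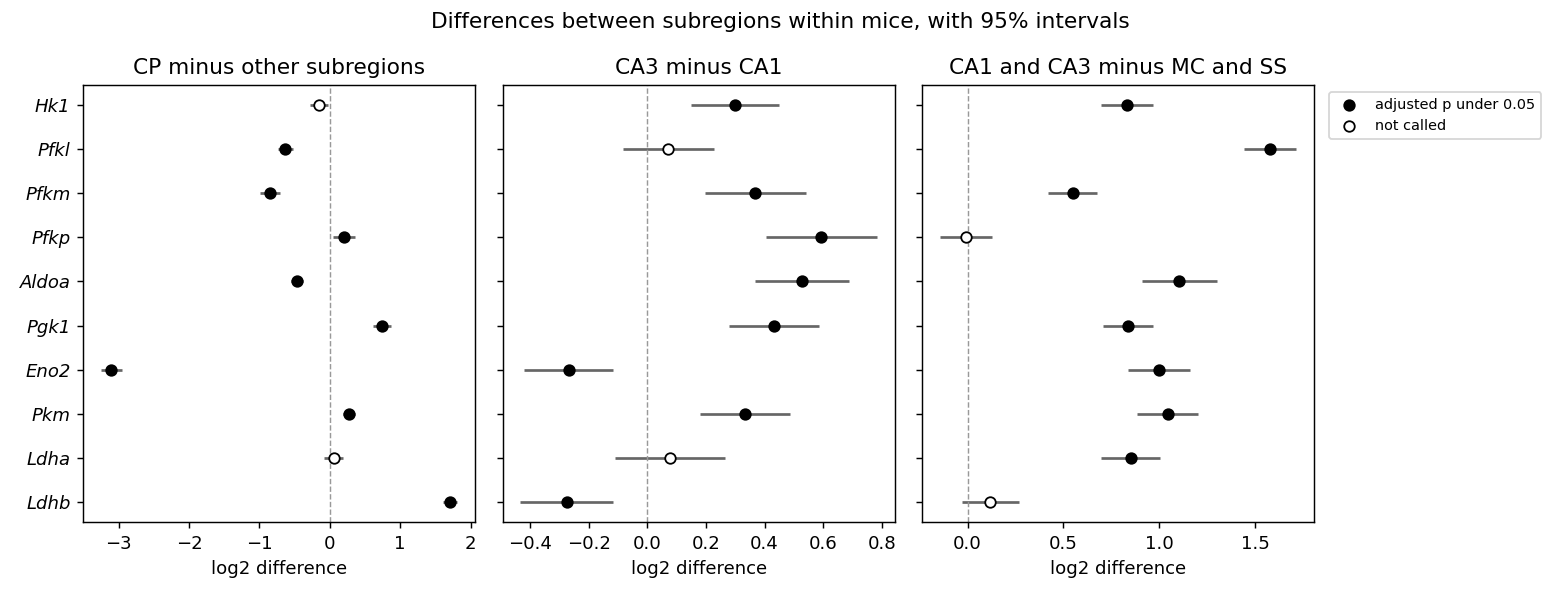
Log2 difference of each gene (x axis) in 3 comparisons within mice, with 95% intervals as lines; filled points have an adjusted p under 0.05 by limma and open points do not. Ldhb (1.71) and Eno2 (-3.10) are the extremes in CP, Pfkp (0.59) and Ldhb (-0.28) between CA3 and CA1, and Pfkl (1.58) leads between hippocampus and cortex under the deposited scaling.

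Other genes around the pathway were called in CP to differing extents, beside the 40.2% of all genes called. Of 21 genes of lactate and pyruvate handling, 10 were higher and 3 lower. Bsg and Emb, the accessory proteins that carry monocarboxylate transporters to the membrane, were higher by 3.35 and 2.80 on the log2 scale, Slc16a8, a lactate transporter, by 3.06 and Mpc1, a subunit of the mitochondrial pyruvate carrier, by 0.89. Slc16a7, the neuronal lactate transporter, fell by 0.90, and Slc16a1 (0.10) and Slc16a3 (-0.12) did not pass. The negative probe ranged from 10.8 to 18.1 over AOIs. Mean Slc16a3 signals, from 11.9 in CA3 to 17.7 in SS, lay within that range, as did Slc16a7 in CP (14.9). The missing Slc16a3 difference thus says little, and the size of the Slc16a7 fall is limited by background. Of 12 glucose transporters and related carriers 3 were higher and 3 lower. Slc2a12 was higher by 2.79 and Slc2a1, the transporter of barrier cells, by 1.23. Slc2a3, the neuronal transporter, fell by 1.72, to a CP mean of 15.5 that also lay within the negative probe range. Slc2a13, a related carrier, fell by 1.57. Of 14 regulators, Epas1 and Hif1a, both oxygen-regulated transcription factors, were higher by 2.48 and 1.07, and 4 were higher and 1 lower in all, no larger a share than that of all genes. Of 18 genes of glycogen metabolism 10 were higher and 2 lower, among them Pygm (1.84), Gys1 (1.49) and Pygb (0.73), with Pgm2l1 lower (-3.58). Of the 19 other glycolytic enzymes measured, 2 were higher and 4 lower, with Aldoc at -2.22 and Tpi1 at -0.76, again no larger a share than that of all genes.

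Within the hippocampus, CA3 held more of most members than CA1, while Eno2 and Ldhb went the other way. In all, 6 members were called higher in CA3: Pfkp, Aldoa, Pgk1, Pfkm, Pkm and Hk1. Eno2 and Ldhb were called lower, and Pfkl (0.07, interval -0.08 to 0.23) and Ldha (0.08, interval -0.11 to 0.27) did not pass. Both passed as higher in CA3 after quantile normalization (0.17, adjusted p = 0.0118, and 0.24, adjusted p = 0.00483) and under scaling to the 75th percentile (0.23, adjusted p = 0.00354, and 0.23, adjusted p = 0.0363). These 8 calls of 10 compare with 17.7% of all genes called, 5.04% higher and 12.7% lower, with 9.39% of genes having the same sign in all mice, and with 52.3% of the 1997 genes of highest signal, of which 288 were called higher and 756 lower. Without the mouse as a block 2 members were called, Pfkp and Pgk1.

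Aldoa in CA3 ranged from 1168 to 2996 over 10 mice with a median of 2152, and in CA1 from 895 to 1765 with a median of 1456. The ranges overlap between mice, but each of the 10 mice was higher in CA3, with a log2 difference of 0.53 (interval 0.37 to 0.69, adjusted p = 4.02e-06 by limma). Pfkp was 127 ± 27.95 in CA3 and 82.1 ± 14.3 in CA1 (0.59, interval 0.40 to 0.78), and Pgk1 337 ± 76.5 and 245 ± 34.5 (0.43, interval 0.28 to 0.59), each higher in 10 of 10 mice. Pfkm (0.37), Pkm (0.33) and Hk1 (0.30) were higher in 9 of 10 mice each.

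Eno2 was 1018 ± 243 in CA3 and 1203 ± 192 in CA1, a log2 difference of -0.27 (interval -0.42 to -0.12, adjusted p = 0.00947 by limma), and Ldhb 230 ± 63.3 and 267 ± 41.3 (-0.28, interval -0.43 to -0.12, adjusted p = 0.00993). Averaged on the log2 scale, both were lower in 9 of 10 mice; by mean signal Eno2 was lower in 8 of 10. These 2 calls were lost under scaling to the 75th percentile (-0.11, adjusted p = 0.133, and -0.12, adjusted p = 0.183), which moved the median of all genes by 0.15, and with every AOI in the fit and the mouse as a random block (adjusted p = 0.129 and 0.0973). Eno1 rose by 0.89 in the same comparison (1139 against 604), in 10 of 10 mice. Markers of cell types differed too. Of 7 astrocyte markers 4 and of 7 oligodendrocyte markers 5 were called higher in CA3 and none lower. Of 7 general neuron markers 5 were called higher and 1 lower, and their summed signal had a median of 6819 in CA3 (3156 to 12315) and 3780 in CA1 (2467 to 5487). Of 6 excitatory neuron markers 1 was higher and 2 lower. Of 8 choroid plexus epithelium markers 1 was higher and 1 lower, with a summed signal of 346 in CA3 (142 to 750) and 192 in CA1 (148 to 277). The part of these markers in the members' differences was not tested.

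Outside the members, 4 of 19 other glycolytic enzymes were called higher in CA3 and none lower: Eno1, Gpi1 (0.58), Pgam1 (0.44) and Aldoc (0.25). That share is near the 17.7% of all genes called in either direction. By direction, 5.04% of all genes were called higher and 12.7% lower, while these 4 were all higher. The counts below are to be read against the same background. Pfkfb3, which makes the activator of phosphofructokinase, was higher by 0.91 and Pgm2l1, a phosphoglucomutase homologue, by 1.07. Of 21 genes of lactate and pyruvate handling 3 were higher and 2 lower, among them Dlat (0.57), a subunit of pyruvate dehydrogenase, and Mpc2 (-0.35). Of 12 glucose transporters and related carriers 1 was higher and 2 lower, with Slc2a13 at -0.68.

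Hippocampal AOIs carried higher signals than cortical AOIs for most members under the deposited scaling, but this direction depended on the scaling. The mean of CA1 and CA3 exceeded that of MC and SS for Pfkl by 1.58 on the log2 scale (301 against 100), Aldoa by 1.10, Pkm by 1.04, Eno2 by 0.998, Ldha by 0.85, Pgk1 by 0.84, Hk1 by 0.83 and Pfkm by 0.55, all called and all in 10 of 10 mice. Ldhb (0.12, interval -0.03 to 0.27) and Pfkp (-0.01, interval -0.14 to 0.13) were not called. Of all genes 51.1% were called, 34.4% higher and 16.7% lower, and 28.1% had the same sign in all 10 mice. Among the 1997 genes of highest signal 1820 were called higher and 80 lower, with a median of 0.78, against 0.84 over the members. Markers of neurons differed by type in the same comparison. Of 7 general neuron markers 7 were called higher, with a median of 0.94. Of 6 excitatory neuron markers 4 were higher and 1 lower. The summed signal of the excitatory markers had a median of 7536 in CA1 and 5956 in CA3, against 2902 in MC and 2826 in SS. That of 6 inhibitory neuron markers went the other way, with 444 in CA1, 400 in CA3, 680 in MC and 487 in SS. The part of these markers in the members' differences was not tested.

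The spread of signals itself differed: the 90th percentile gene stood higher over the median gene in hippocampus by 0.66 ± 0.12 (SD) on the log2 scale, in 10 of 10 mice, and the median gene stood higher over the negative probe by 0.25 ± 0.07, also in 10 of 10. Quantile normalization, which gives every AOI the same distribution, reversed 7 members: Hk1 (-0.06), Pfkm (-0.32), Aldoa (-0.10), Pgk1 (-0.10), Eno2 (-0.15), Pkm (-0.10) and Ldhb (-0.83). Pfkl stayed higher (0.72, adjusted p = 1.06e-15), Ldha was at 0.02 and 5 members were called lower: Pfkp (-0.79), Ldhb, Pfkm, Eno2 and Pkm. Scaling to the 75th percentile, which moved the median of all genes to -0.37, left the same 8 members higher and called Ldhb (-0.24) and Pfkp (-0.37) lower. Over all genes, the split of 6864 higher and 3330 lower became 3087 and 2677 after quantile normalization, 3749 and 12451 under the 75th percentile and 8720 and 453 after subtraction of the negative probe. In every scaling tried, Pfkl held the highest difference of the 10, and Pfkp and Ldhb the 2 lowest.

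**Figure D3:**
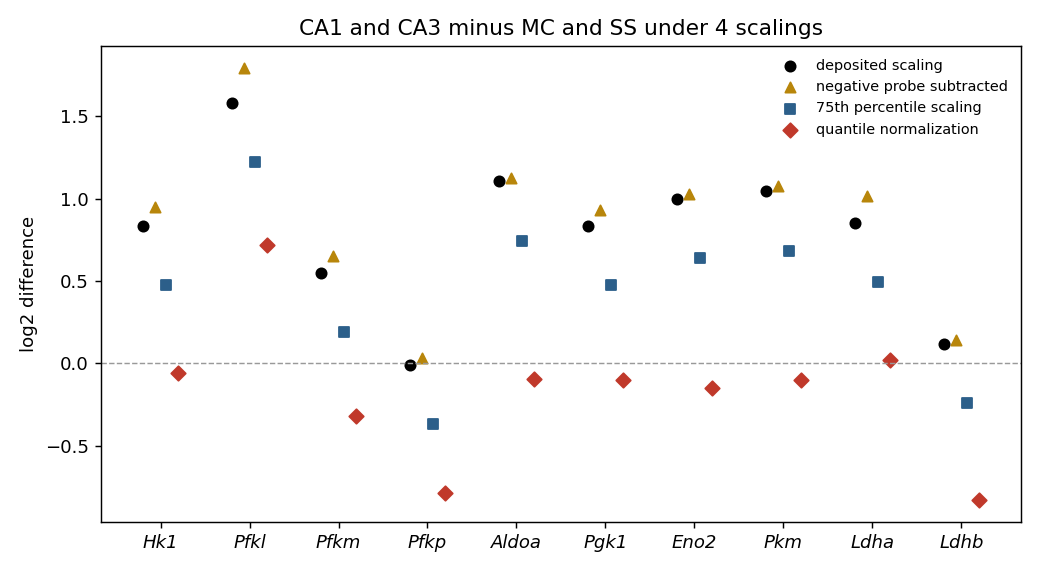
Log2 difference of hippocampus (CA1 and CA3) over cortex (MC and SS) for each gene under 4 scalings of the same signals. Pfkl is above 0 under all 4, while Ldhb runs from 0.14 after subtraction of the negative probe to -0.83 after quantile normalization.

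No member was called between somatosensory and motor cortex, with log2 differences from -0.16 (Pgk1, interval -0.33 to 0.003) to 0.06 (Ldha, interval -0.12 to 0.25), and 0 of 19962 genes (0%) were called by limma, with 1100 genes (5.51%) at an unadjusted p under 0.05. The Aldoa signal in MC was 280 in CSS mouse 1169, against 507 to 1202 in the 9 other mice.

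Both isoforms of a pair share the scaling factor of their AOI, so ratios of isoforms were compared as well. Levels of 2 probes are not compared here; only the change of their ratio between subregions is. The ratio of Ldha to Ldhb had a geometric mean of 0.834 in CA3, 0.653 in CA1, 0.474 in SS, 0.417 in MC and 0.182 in CP. In CP it lay between 0.153 and 0.217 in all 9 mice, below every other subregion, where the lowest mouse was at 0.249 in MC. The log2 ratio was lower in CP by 1.66 ± 0.25 (SD; 9 of 9 mice, exact sign-flip p = 0.00391, adjusted p = 0.0108 over 36 tests). It was higher in CA3 than in CA1 by 0.35 ± 0.21 and in hippocampus than in cortex by 0.73 ± 0.31, in 10 of 10 mice each (exact p = 0.00195, adjusted p = 0.00781). These exact p-values are the smallest that 9 and 10 mice can give.

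Pfkl over Pfkm was 1.82 in CA1, 1.48 in CA3, 1.33 in CP, 0.824 in SS and 0.786 in MC. It was higher in hippocampus than in cortex by 1.03 ± 0.21 on the log2 scale and lower in CA3 than in CA1 by 0.30 ± 0.17, each in 10 of 10 mice (adjusted exact p = 0.00781). Between hippocampus and cortex and between CA3 and CA1, the ratio of Pfkp to Pfkm ran the opposite way, but not in CP. Pfkp over Pfkm was 0.520 in CA1, 0.608 in CA3, 0.780 in MC, 0.876 in SS and 1.41 in CP. It was higher in CP by 1.05 ± 0.34 (9 of 9 mice, adjusted exact p = 0.0108) and lower in hippocampus than in cortex by 0.56 ± 0.14 (10 of 10 mice, adjusted exact p = 0.00781). Pfkl over Pfkm in CP against the other subregions missed the threshold, at 0.22 ± 0.22 (8 of 9 mice, adjusted exact p = 0.0527).

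Eno2 over Eno1 was 1.99 in CA1, 1.08 in MC, 0.990 in SS, 0.889 in CA3 and 0.0887 in CP. CA1 did not overlap with any other subregion, with a lowest mouse of 1.73 against a highest of 1.20 in MC, and the log2 ratio was lower in CA3 than in CA1 by 1.16 ± 0.15 in 10 of 10 mice (adjusted exact p = 0.00781). Aldoa over Aldoc was 23.4 in CP, 12.5 in CA3, 10.3 in CA1, 4.396 in SS and 3.67 in MC, higher in hippocampus than in cortex by 1.496 ± 0.405 in 10 of 10 mice. In MC the CSS mouse 1169, with 1 AOI there, had a ratio of 1.12 and the other mice 3.68 to 5.16; without that mouse the hippocampal difference was 1.39 (adjusted exact p = 0.0108). The Aldoc signal was lowest in CP, at 36.6 ± 4.76 (SD, n = 9), and its lowest margin over the negative probe in any AOI was 1.96-fold. The CP value of Aldoa over Aldoc thus rests on a signal nearer background than in the other subregions. Oligodendrocyte markers (7 of 7) and astrocyte markers (4 of 7) were called lower in hippocampus than in cortex under the deposited scaling. In addition, 1 astrocyte marker was called higher, and the part of these markers in the ratios was not tested. Under quantile normalization, a setting added after the data were seen, the calls of the ratios named above between hippocampus and cortex were kept. Those of Ldha over Ldhb were kept as well. Hk1 over Hk2, a ratio to a gene near background, was higher in hippocampus by 0.91 ± 0.30 (10 of 10 mice, adjusted exact p = 0.00781). Its difference changed sign under quantile normalization. Between SS and MC no ratio was called: the lowest adjusted exact p of the 6 pairs was 0.200, for Pfkp over Pfkm.

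**Figure D4:**
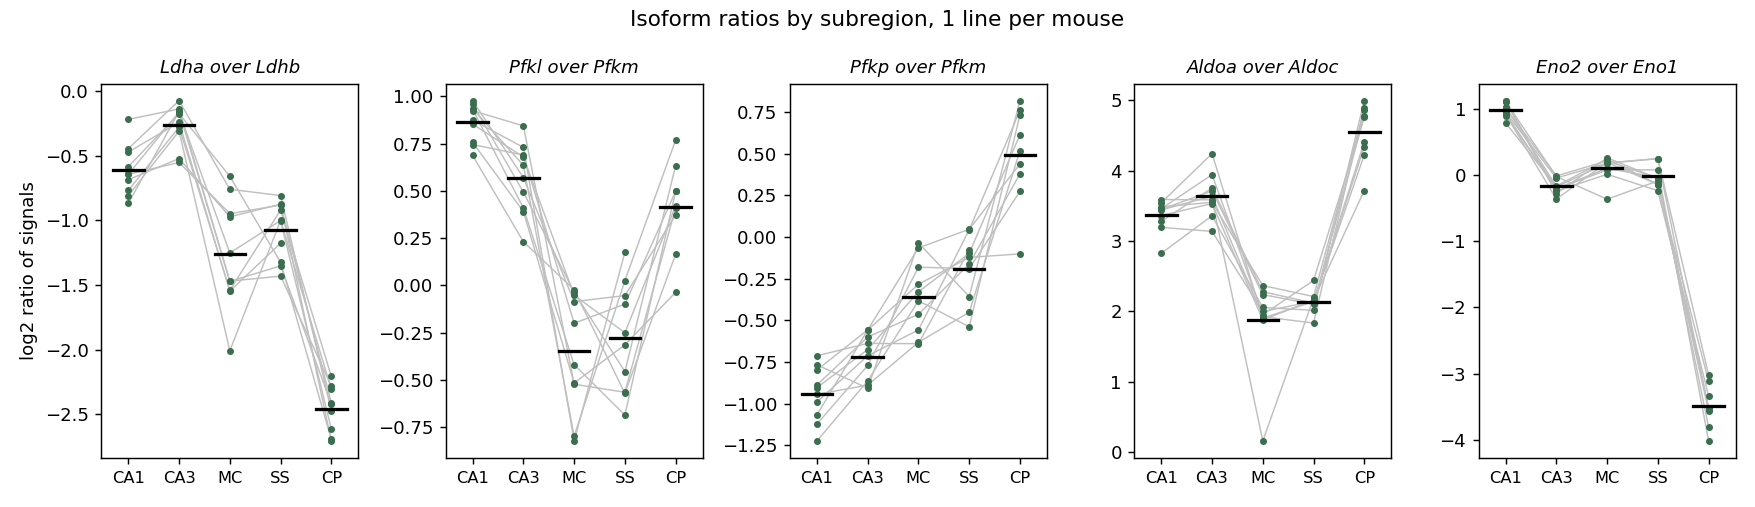
Log2 ratio of 2 isoform signals (y axis, own range per panel) in each subregion; points are mice, grey lines join the subregions of a mouse and bars are means. Ldha over Ldhb and Eno2 over Eno1 are lowest in CP, Pfkp over Pfkm and Aldoa over Aldoc are highest there, and Pfkl over Pfkm separates hippocampus from cortex, with CP overlapping both. The low point of Aldoa over Aldoc in MC (0.16) is mouse 1169.

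Genes with a profile like that of a member over the 49 means per mouse and subregion were found by Pearson correlation among 9980 genes; the points share mice, libraries and background, and the values are a description. Ldha was most like the glycolytic gene Gapdh (r = 0.94). Hk1 was most like Gpi1, the next enzyme of the pathway (0.95), and Aldoa had the glycolytic Pgam1 in second place (0.97). Eno2 was most like Gnao1, a neuronal G protein subunit (0.99). Pfkp was the least matched, with Ak1 (0.78), Ids (0.76) and Eno1 (0.76).

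AOIs labelled p16 high had slightly higher signals than p16 low AOIs of the same mouse and subregion in hippocampus and cortex, without a call. All 10 members were above 0, from 0.12 (Ldhb) to 0.20 (Ldha and Eno2) on the log2 scale. None passed the adjusted threshold, against 0.386% of all genes (77 genes; leaving out any mouse but 1163 moved this count by over 1.5 times, to 0 without mouse 1151 or 1175 and to 256 without mouse 1182), and the lowest adjusted p was 0.0584 for Eno2 (limma). All 10 had an unadjusted p under 0.05, as did 2828 genes or 14.2% of the table, and 57.7% of all genes lay above 0. Of the 1997 genes of highest signal 95.5% were above 0, with a median of 0.13, against 0.15 over the members, so the members did not stand apart from other high-signal genes in direction.

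Ldha was 151 in high and 127 in low AOIs (log2 difference 0.20, interval 0.08 to 0.32), higher in 8 of 10 mice, and Eno2 903 and 764 (0.20, interval 0.10 to 0.30), also in 8 of 10. Pfkl was higher in 10 of 10 mice, by 0.16 (interval 0.06 to 0.25, adjusted p = 0.121 by limma); 1.14% of all genes kept 1 sign in all mice. Eno2 passed when only genes above the median signal were tested (adjusted p = 0.0294), with a pseudocount of 10 (0.0462) and without mouse 1168 (0.0342). Without mouse 1182, Eno2 (0.0269), Ldha (0.0396) and Pkm (0.0430) passed. After quantile normalization the members ranged from -0.03 (Ldhb) to 0.07, with Hk1 also below 0. General neuron markers were above 0 in 7 of 7 cases, from 0.05 to 0.18, and the 90th percentile gene stood higher over the median gene in high AOIs of 10 of 10 mice, by 0.12 ± 0.08; their part in the members' differences was not tested.

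Subregion by subregion, the p16 differences were given by 7 to 9 mice each and are a description. The median over members was 0.31 in CA3, with all 10 above 0, 0.17 in CA1 with 9 above 0 (Pfkp at -0.08), 0.12 in SS and 0.06 in MC with 10 above 0 each. Ldha had the highest values, 0.40 ± 0.44 (SD, n = 8) in CA3 and 0.30 ± 0.32 (n = 8) in CA1, where the high and low AOIs had mean signals of 192 and 154. The SD exceeded the mean in both.

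In choroid plexus all 10 members were below 0, from -0.24 (Ldhb) to -0.07, and none passed. By limma 0 of 19962 genes (0%) were called, and 1046 (5.24%) had an unadjusted p under 0.05. Of all genes 43.4% lay above 0. Of the 1997 genes of highest signal 29.9% lay above 0, with a median of -0.07, so most of these were also lower. Ldhb was 703 in high and 825 in low AOIs of 7 mice (log2 difference -0.24, interval -0.37 to -0.11, unadjusted p = 0.00101, adjusted p = 0.889 by limma), lower in 6 of 7. Pkm (-0.17) and Pgk1 (-0.15) were also lower in 6 of 7 mice. Choroid plexus epithelium markers were below 0 in 8 of 8 cases, with a median of -0.14, against -0.11 over the members, and their part was not tested. After quantile normalization the members ran from -0.13 to 0.01, with Hk1 and Aldoa at or just above 0. No isoform ratio was called between the p16 labels in hippocampus and cortex: the lowest adjusted exact p was 0.0910, for Aldoa over Aldoc (0.14 ± 0.18, 7 of 10 mice).

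No member was called between CSS and control mice. In hippocampus and cortex the log2 differences, CSS minus control, ran from -0.05 (Pfkp) to 0.07 (Ldha), with no member called and 0 of 19962 genes (0%) called by limma (146, or 0.731%, at an unadjusted p under 0.05). Of the members 6 lay above 0, as did 45.8% of all genes and 54.0% of the 1997 genes of highest signal. The intervals were wide: -0.22 to 0.36 for Ldha and -0.28 to 0.37 for Ldhb. In CP the differences ran from -0.23 (Hk1, interval -0.65 to 0.20) to 0.24 (Pfkm, interval -0.21 to 0.69), again with 0% of genes called and 856 (4.29%) at an unadjusted p under 0.05. There 6 members lay above 0, as did 51.1% of all genes and 65.1% of the 1997 genes of highest signal. The values of CSS and control mice overlapped for each member in both comparisons; over all genes, 0.401% in hippocampus and cortex and 0.997% in CP did not overlap.

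For Ldha in CA3 and Ldhb in CP, the control mice spanned more than the CSS mice. Ldha in CA3 was 105 to 268 over 4 control mice, with a median of 170, and 157 to 231 over 6 CSS mice, with a median of 197. Ldhb in CP was 474 to 956 over 4 control mice and 631 to 868 over 5 CSS mice. In both cases the lowest value was that of mouse 1175 and the highest that of mouse 1151. The sign of the stress difference depended on single mice. Without mouse 1175 all 10 members lay below 0 in hippocampus and cortex, from -0.25 to -0.13 (lowest adjusted p = 0.757 by limma), and without mouse 1151 all 10 lay above 0, from 0.07 to 0.21 (adjusted p = 0.997). Leaving out mouse 1152, 1157, 1162, 1169 or 1182 also turned the sign of 1 to 4 members.

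Within subregions the CSS differences were a description as well. All 10 members were above 0 in CA3, with a median of 0.20, and all 10 below 0 in MC, with a median of -0.09, while CA1 (0.06), SS (-0.02) and CP (0.04) had members on both sides. Without mouse 1175 the CA3 median was -0.02, with 4 members above 0, and the MC median -0.32. Without CSS mouse 1169, which has 1 AOI in MC, the MC median was 0.05 with 7 members above 0, and without control mouse 1151 it was 0.03 with 6 above 0. Over all mice left out in turn, the median ran from -0.02 to 0.39 in CA3 and from -0.32 to 0.05 in MC. Ldhb in CA3 had the highest of these differences, at 0.34 (246 ± 42.3 in 6 CSS and 205 ± 87.5 in 4 control mice).

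No difference in the p16 effect between stress groups was called. High minus low in hippocampus and cortex differed between CSS and control mice by -0.07 (Ldha, interval -0.39 to 0.25) to 0.19 (Pkm, interval -0.09 to 0.48), with 0% of genes called by limma and 661 (3.31%) at an unadjusted p under 0.05. Of the members 8 lay above 0, as did 51.6% of all genes and 66.7% of the 1997 genes of highest signal. All 10 overlapped between the groups, while 0.661% of genes did not. No isoform ratio was called between CSS and control mice in hippocampus and cortex: the difference of the Ldha over Ldhb ratio was 0.03 on the log2 scale (exact permutation p = 0.79, 10 mice).

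**Figure D5:**
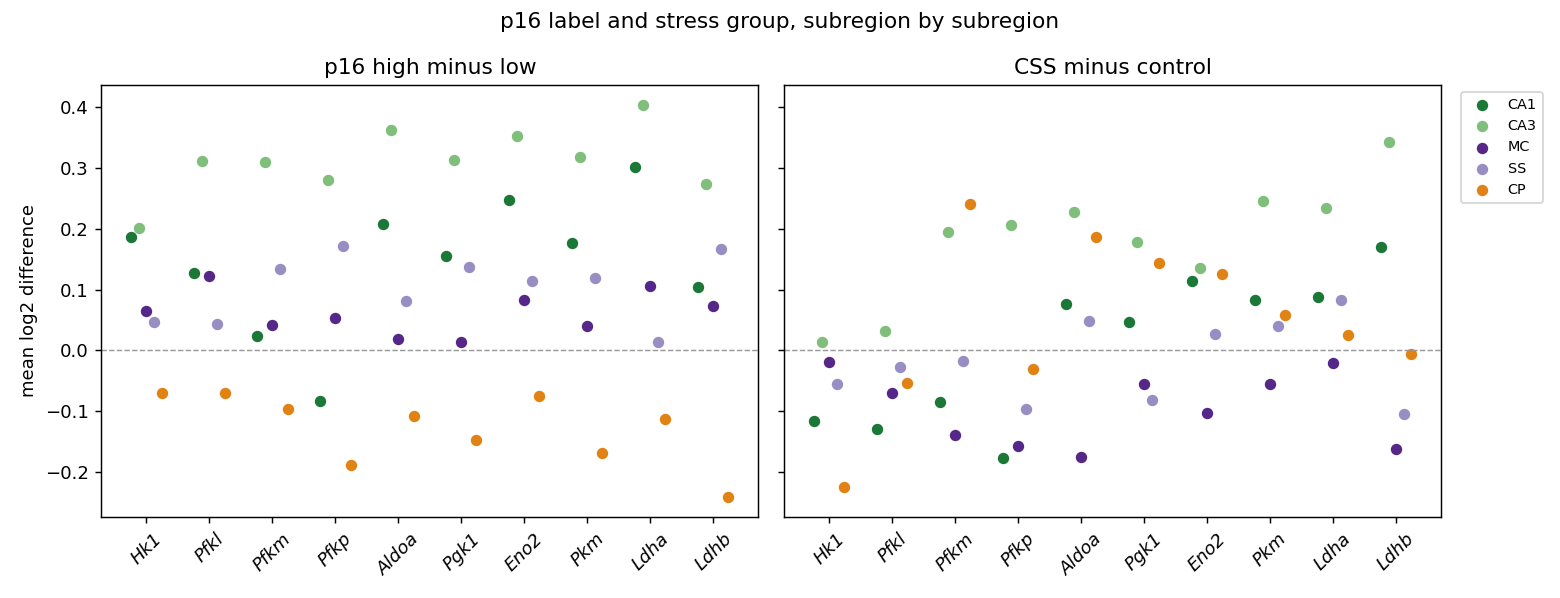
Mean log2 difference of each gene within each subregion (colours) for p16 high minus low (left, 7 to 9 mice per subregion) and CSS minus control (right, 9 or 10 mice). On the left, CA3 points are the highest for all 10 genes (0.20 to 0.40) and CP points lie below 0, while on the right MC points lie below 0 and CA3 points above.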

How the data were processed

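The submitters profiled 90 AOIs of 10 mice with the GeoMx mouse whole transcriptome probes, per the labels' protocols, and the submitters' processing notes name the build mm10. The deposited values are a signal: the authors scaled each AOI's counts to a common median gene, as the values themselves show, and the sources used here give no more detail. Signals were taken as log2(signal + 1), AOIs were averaged per mouse, and limma 3.58.1 (R 4.3.3, trended variance) was fitted to all 19962 genes with the mouse as a block for comparisons within mice. CSS and control mice were compared after centring within subregion and p16 label. P-values were adjusted over all genes (Benjamini-Hochberg, threshold 0.05), and those of isoform ratios, from exact 2-sided sign-flip or permutation tests, over 36 tests. All 10 members were named, and other genes came from pathway and marker lists. The members and lists were chosen with earlier results of these data known. The block came from the mouse numbers in the labels: over 41 pairs of AOIs of 1 mouse and subregion, deviations correlated with a median of 0.11, and 21 pairs were above 0.1. The code was tested on simulated data. Alternatives were other scalings, a pseudocount of 10, a filter on genes, other blocks and leaving out each mouse. No upper limit for counting error is given, since every member was detected in each AOI. Replicates are mice, and intervals cover the spread between these mice only. One result of the search for similar profiles is not reported here.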

Additional observations from a re-analysis of the deposited data

Results flagged for a closer look

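Of 100 sets of mice tested for a single value far from the rest, 2 held one; chance alone gives about 1 in 20. Among 6 CSS mice in CA1, Pfkl was 358 in mouse 1162, and the nearest mouse was at 289. Among the same 6 mice, Pgk1 was 195 in mouse 1152, and the nearest was at 245. Neither gene was called between CSS and control mice. Of 60 sets of isoform ratios tested the same way, a step added after the ratios had been plotted, 2 held a far value. The log2 ratio of Aldoa over Aldoc in MC was 0.16 in mouse 1169, and the nearest of the 6 CSS mice was at 1.91. The log2 ratio of Pfkl over Pfkm in CA1 was 0.75 in mouse 1175, and the nearest of the 4 control mice was at 0.92.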

How the results depend on the processing

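Over all alternatives, 1863 of the values for single genes and ratios kept their direction and side of the threshold, 22 lost a call, 21 gained one and 118 changed sign. Without the replicate block, 5 members were called in CP and 2 between CA3 and CA1. For p16 in hippocampus and cortex, 1 member was called with a pseudocount of 10, 1 among genes above the median signal, and 0 to 3 when mice were left out in turn. Over all genes, that comparison called 77 genes, but 129 with a pseudocount of 10, 134 with the median over the negative probe as a covariate, 0 (without mouse 1151 or 1175) to 256 (without 1182) when mice were left out, 268 of the genes above the median, 43 after subtracting the negative probe, 18 without the CA3 AOIs of mouse 1175, 1 with a random block, and 0 under quantile normalization, the 75th percentile or no block. Hippocampus against cortex called 10194 genes, 5764 after quantile normalization and 16200 under the 75th percentile. Splits of higher and lower calls between CA3 and CA1 were 1007 and 2528, 1563 and 1633 after quantile normalization, and 2525 and 1442 under the 75th percentile; in CP they were 4113 and 3921, and 5273 and 3169 after subtraction.

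Quantile normalization reversed Hk1 (-0.0566), Pfkm (-0.32), Aldoa (-0.0951), Pgk1 (-0.10), Eno2 (-0.15), Pkm (-0.10), Ldhb (-0.83) and Hk1 over Hk2 (-0.13) between hippocampus and cortex. The 75th percentile reversed Ldhb (-0.24) there, and subtraction Pfkp (0.0355). The other reversals were of values never called. Quantile normalization gave, for p16 in brain, Hk1 -0.0106, Ldhb -0.0310, Pfkl over Pfkm -0.00450, Pfkp over Pfkm 0.00415 and Hk1 over Hk2 -0.0459 (subtraction -0.10). It gave, for p16 in CP, Hk1 0.00798 and Aldoa 0.000210, for CSS in brain Pgk1 -0.00359, and for CSS in CP Pkm -0.0419 and Ldha -0.0291 (75th percentile -0.0162). For the p16 difference between stress groups it gave Pfkl -0.0338, Pfkp -0.0464, Aldoa -0.00804 and Pgk1 -0.0171. The random block gave there Hk1 -0.0189, Pfkl -0.0857, Pfkp -0.0691, Aldoa -0.0837 and Pgk1 -0.00408, and Aldoa -0.0280 between SS and MC. Without the CA3 AOIs of mouse 1175, an alternative chosen after seeing the data like the quantile ratios, Pgk1 was -0.00743 for CSS in brain. The causes were not tested.

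Leaving out each mouse gave, for CSS in brain, Hk1 -0.25 to 0.12, Pfkl -0.20 to 0.0896, Pfkm -0.22 to 0.10, Pfkp -0.23 to 0.0696, Aldoa -0.19 to 0.19, Pgk1 -0.20 to 0.16, Eno2 -0.20 to 0.19, Pkm -0.15 to 0.21, Ldha -0.13 to 0.16 and Ldhb -0.18 to 0.20. For CSS in CP it gave Pfkl -0.23 to 0.0502, Pfkp -0.19 to 0.0614, Aldoa -0.0184 to 0.28, Pgk1 -0.0960 to 0.27, Pkm -0.19 to 0.18, Ldha -0.15 to 0.16 and Ldhb -0.25 to 0.0935. For the p16 difference between stress groups it gave Hk1 -0.000158 to 0.12, Pfkl -0.0361 to 0.0572, Pfkp -0.0569 to 0.0923, Aldoa -0.0357 to 0.10, Ldha -0.19 to 0.0281 and Ldhb -0.10 to 0.0551. Between SS and MC it gave Pfkl -0.17 to 0.0121, Pfkp -0.0171 to 0.11, Aldoa -0.11 to 0.0922, Ldha -0.0164 to 0.10 and Pfkl over Pfkm -0.0352 to 0.14. It gave Eno2 -0.17 to 0.0632 for p16 in CP, Pfkp -0.0672 to 0.0249 between hippocampus and cortex, and Hk1 over Hk2 -0.0159 to 0.19 between CA3 and CA1. For p16 in brain it gave Pfkl over Pfkm -0.0154 to 0.0383 and Pfkp over Pfkm -0.0460 to 0.0192. For CSS in brain the ratios were Ldha over Ldhb -0.0396 to 0.0717, Pfkl over Pfkm -0.0406 to 0.0179, Pfkp over Pfkm -0.0664 to 0.0135, Hk1 over Hk2 -0.0420 to 0.24 and Eno2 over Eno1 -0.0511 to 0.0192.

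The planned count-based test was not run. The intervals of the CSS differences were wide in hippocampus and cortex (10 mice) and in CP (9 mice), and differences within them are not excluded. Hk2 is limited by its background.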
